A study of Rattus norvegicus with 4 samples.

Results

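Il33, Kitlg, Cxcl14, Vgf and Inhba encode secreted signals: an alarmin cytokine, a growth factor, a chemokine, a neuropeptide precursor and an activin subunit. They are 5 of the 14410 genes in the deposited table. They were picked by name as secreted signals with far lower values in CG4 cells carrying extra Phf8, so their difference between the groups is given as a description and not tested. CG4 is a rat cell line of the oligodendrocyte lineage, the lineage that makes myelin in the brain. All cells were wild type at their own genes and had been infected with a retrovirus in which the CAG promoter drives expression and an IRES adds GFP. The ctrl virus carried GFP alone and the Phf8oe virus carried Phf8 with GFP. GFP-positive cells were sorted, expanded, switched to SATO differentiation medium and harvested after 3 days of differentiation. Each group held 2 libraries that the labels call biological replicates, with no statement that they came from separate infections, so the p-values below measure only the spread between these libraries. Phf8 itself stood at 2026 and 2205 normalized counts in ctrl and at 5650 and 10796 in Phf8oe (limma adjusted p = 0.0631), the total for the cells' own and the added gene.

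IL-33 belongs to the interleukin-1 family, sits in the nucleus of glial cells and is released on damage to act through the receptor ST2 (Il1rl1) with Il1rap. Kitlg, or stem cell factor, activates the receptor tyrosine kinase Kit. CXCL14 is a chemokine of barrier tissues and brain that has been reported to modulate signalling through CXCR4. VGF is stored in dense-core vesicles and cut into peptides, for which C3ar1 and C1qbp have been reported as receptors. A pair of Inhba chains forms activin A, which signals through type II receptors (Acvr2a, Acvr2b) and the type I receptor Acvr1b to Smad2 and Smad3, and is held in check by follistatin (Fst). Phf8 is a histone demethylase that removes methyl groups from repressive marks and binds promoters through a reader of H3K4 trimethylation, a mark found mostly at CpG-rich promoters.

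Because the 5 genes were lower together, the sequence before each start site was compared. RefSeq promoter windows of assembly GRCr8 were found for 5 of 5 genes, and the 250 bases before the start are printed 5′ to 3′ on the gene's strand. Capitals mark matches to the AP-1 site TGANTCA, the cAMP response element TGACGTCA (CRE) or its TGACG core, searched on both strands, the last lying inside the CRE. The Vgf window lies at chr12:25277021-25277270 (minus strand), Cxcl14 at chr17:8322900-8323149 (plus), Kitlg at chr7:36782410-36782659 (plus), Il33 at chr1:237115323-237115572 (plus) and Inhba at chr17:53804509-53804758 (minus).
Vgf: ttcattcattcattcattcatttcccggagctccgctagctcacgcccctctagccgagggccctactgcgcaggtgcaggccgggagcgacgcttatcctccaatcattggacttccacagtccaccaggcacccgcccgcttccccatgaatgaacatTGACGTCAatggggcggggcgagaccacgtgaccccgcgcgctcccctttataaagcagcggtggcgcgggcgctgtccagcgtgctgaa
Cxcl14: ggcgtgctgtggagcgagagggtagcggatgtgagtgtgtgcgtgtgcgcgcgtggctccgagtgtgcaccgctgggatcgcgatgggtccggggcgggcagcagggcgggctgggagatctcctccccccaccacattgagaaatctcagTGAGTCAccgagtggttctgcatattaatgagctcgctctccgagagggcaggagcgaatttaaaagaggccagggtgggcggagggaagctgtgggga
Kitlg: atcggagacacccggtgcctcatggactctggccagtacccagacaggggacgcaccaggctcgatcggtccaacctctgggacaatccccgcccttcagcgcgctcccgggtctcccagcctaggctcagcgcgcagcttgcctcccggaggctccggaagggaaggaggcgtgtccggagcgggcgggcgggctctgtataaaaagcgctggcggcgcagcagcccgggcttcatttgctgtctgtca
Il33: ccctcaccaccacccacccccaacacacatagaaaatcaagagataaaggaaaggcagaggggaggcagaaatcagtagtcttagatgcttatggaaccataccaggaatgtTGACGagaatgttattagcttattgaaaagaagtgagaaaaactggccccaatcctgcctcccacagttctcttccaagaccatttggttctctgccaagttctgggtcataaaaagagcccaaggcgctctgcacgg
Inhba: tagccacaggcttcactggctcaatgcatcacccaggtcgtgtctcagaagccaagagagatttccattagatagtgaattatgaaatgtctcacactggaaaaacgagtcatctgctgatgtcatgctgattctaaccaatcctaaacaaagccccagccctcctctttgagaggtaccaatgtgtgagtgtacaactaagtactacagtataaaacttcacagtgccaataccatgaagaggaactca

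The Vgf window held the full CRE, starting 90 bases before the start site, a match present in 2.76% of the windows of tested genes and 1.59% of all 33469 windows. The Cxcl14 window held an AP-1 match, TGAGTCA, starting 99 bases before the start, as did 4.32% of the windows of tested genes and 6.34% of all. The Il33 window held only the TGACG core, which 26.6% of the windows of tested genes and 18.2% of all contain. The Kitlg and Inhba windows and the other Il33 window (chr1:237134696-237134945, plus strand, not printed) held none of the 3 motifs, which says only that these letters are not there. The Sp1 motif GGGCGG was found in the Vgf, Cxcl14 and Kitlg windows and in 57.0% of the windows of tested genes (30.5% of all). The E-box CACGTG was found in Vgf alone of the 5 genes (7.7% of windows of tested genes, 5.59% of all) and the NF-kB motif in Kitlg alone (4.14% and 3.38%). The core of the SRF motif was in none of the windows of these genes and in 1.01% of those of tested genes (1.09% of all). The windows fell into CpG-rich and CpG-poor ones. The observed to expected CpG ratio was 0.947 for Vgf, 0.838 for Cxcl14 and 0.78 for Kitlg, against a median of 0.731 over the windows of tested genes. It was 0.217 and 0.205 for the Il33 windows and 0.171 for Inhba.

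Il33 had the largest ratio between the closest libraries of the 2 groups among the 5 genes, though not the lowest log2 fold change. The ctrl libraries gave 2246 and 2451 normalized counts, the Phf8oe libraries 223 and 338. The groups did not overlap, and the lowest ctrl library was 6.65 times the highest Phf8oe library. The log2 fold change, on log2(normalized count + 1), was -3.09 (8.52-fold lower), between group means of 2348.5 ± 145 and 280.5 ± 81.3 (SD, n = 2).

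Kitlg had normalized counts of 1434 and 948 in ctrl and of 116 and 191 in Phf8oe. Its ctrl libraries differed by 1.51-fold, more than those of the others except Inhba. The closest libraries of the groups still differed by 4.96-fold, and the log2 fold change was -2.96 (7.79-fold lower).

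Cxcl14 stood at 1799 and 1497 in ctrl and at 194 and 402 in Phf8oe. The Phf8oe libraries differed from each other by 2.07-fold, and the closest libraries of the groups by 3.72-fold, the narrowest gap among the 5 genes. The log2 fold change of -2.55 (5.86-fold lower) was the smallest in size of the 5, and 26 of the 14368 tested genes (0.181%) had one as low or lower.

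Vgf gave normalized counts of 4496 and 4615 in ctrl, the closest pair of the 5 genes, and of 486 and 967 in Phf8oe. Its groups did not overlap either, with a gap of 4.65-fold between the closest libraries. The log2 fold change was -2.73 (6.64-fold lower).

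Inhba was measured near the lower limit of the table: 24 and 54 in ctrl, 0 and 4 in Phf8oe. The spacing of the deposited values puts these at 81 reads in the ctrl libraries together and 3 in the Phf8oe libraries together. On that basis the Phf8oe level was 4.58% of the ctrl level, with an exact interval of 0.925% to 13.9% at 95% confidence that covers counting error only. The interval leaves out the spread between libraries and the choice of Inhba on this contrast, so it is no test of the difference. Its fitted log2 fold change depends on the constant added before taking logs, being -4.05 with 1, -4.61 with 0.5 and -2.62 with 5.

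**Figure D1:**
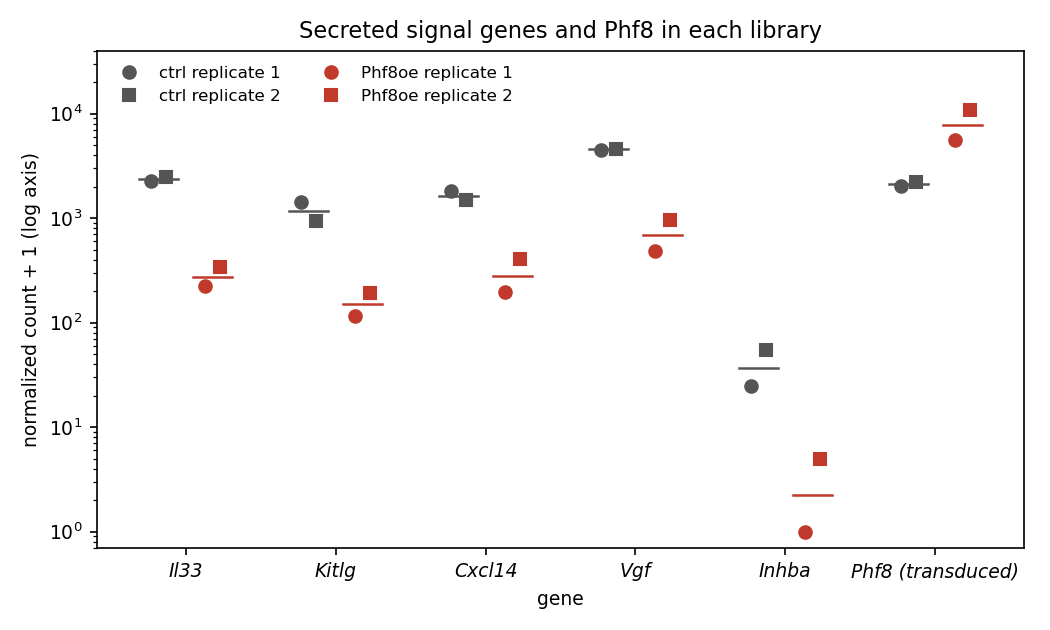
Normalized count plus 1 (log axis) of the 5 secreted signal genes and of Phf8 in each library, ctrl in grey and Phf8oe in red, with circles for replicate 1, squares for replicate 2 and a bar at the geometric mean of each group. In each of the 5 genes both Phf8oe libraries lie below both ctrl libraries and Phf8oe replicate 1 lies below replicate 2. Phf8 is at 5650 in Phf8oe replicate 1 and at 10796 in replicate 2, and no relation to the 5 genes is read from this.

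In 5 of 5 genes both Phf8oe libraries lay below both ctrl libraries, as they did in 28.7% of all tested genes. Since the genes were chosen on this contrast, nothing is read from that count. All 5 passed the filter on low values (at least 10 in at least 2 libraries), and Inhba passed it only through the ctrl libraries. Within Phf8oe, replicate 1 had the lower value in 5 of 5 genes, as in 58.7% of the 668 genes called lower across the table and in 50.4% of all listed genes. The values behind this order are among those that chose the 5, and nothing particular to them is read from it. Phf8 was at 5650 in that library and at 10796 in replicate 2. With 2 libraries this is a description, and no relation between Phf8 level and the 5 signals is read from it. Depth differed too, at about 43100000 and 28400000 estimated reads. Within ctrl no common order appeared, replicate 1 being the lower one in 3 of 5 genes. In these bulk samples, fewer cells making a signal and less RNA per cell cannot be told apart.

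In fits without one of the libraries the log2 fold changes ranged from -3.39 to -2.79 for Il33, -3.32 to -2.6 for Kitlg, -3.07 to -2.03 for Cxcl14 and -3.23 to -2.24 for Vgf. The values nearest 0 came without Phf8oe replicate 1 in each of these genes. For Inhba the range was -5.21 without Phf8oe replicate 2 to -2.89 without Phf8oe replicate 1.

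Profiles most like those of the 5 signals were sought among the other tested genes, without symbols starting with LOC, RGD, MGC, Rn or AABR. Likeness over the 4 libraries was measured by the Euclidean distance between log2 values centred on each gene's mean. Such a distance rests mostly on the difference between the groups, on which the 5 were chosen. It therefore finds genes with similar log2 fold changes, such as Lrrc15 (-2.51), Fgf2 (-2.64) and Gfap (-2.455). No shared regulation is read from it. Cxcl14 and Vgf were the closest pair among the 5 (distance 0.282), and Inhba stood apart from the other 4 (1.71 to 2.01). The distances of Inhba rest on values near the lower limit (0 and 4 in Phf8oe), so they depend on the constant added before taking logs. Lrrc15, encoding a leucine-rich repeat membrane protein, was nearest to both Cxcl14 (0.167) and Vgf (0.23), with normalized counts of 105 and 102 in ctrl and 12 and 25 in Phf8oe. Vgf was also near Gfap (0.291), the astrocyte intermediate filament gene, which had 79141 and 80736 against 10834 and 19613, and near Igfbp3 (0.393), a binding protein for insulin-like growth factors. Kitlg was nearest to the growth factor gene Fgf2 (0.399), the adhesion gene Cadm3 (0.427) and Hhla1 (0.452). Cxcl14 was next nearest to the matrix protease gene Adamts9 (0.222) and to Hhla1 (0.258). Outside the 5, Il33 was nearest to the somatostatin receptor gene Sstr4 (0.602), the cadherin gene Cdh4 (0.626) and Lrrc15 (0.66). It lay closer to Vgf (0.459) and Kitlg (0.534). Inhba was nearest to the retinaldehyde dehydrogenase gene Aldh1a3 (1.26), to Ucn2 (1.36) and to Clstn2 (1.46).

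The receptors and modulators of the 5 signals were measured in the same libraries, and limma fitted across all 14368 genes tested each of them. At a Benjamini-Hochberg adjusted p under 0.05, 4.65% of all tested genes were lower and 2.99% higher in Phf8oe (668 and 430 genes). Of 12 measured receptors and modulators, 2 fell, 2 rose and 8 did not pass, with a median log2 fold change of -0.12 against 0.003 over all genes. Il1rl1, C3ar1 and Acvr1c were not analysed here.

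On the IL-33 side, the co-receptor Il1rap fell from 3996 and 3146 normalized counts to 2198 and 1865, a log2 fold change of -0.81 (SE 0.14) with a limma adjusted p of 0.015. The adaptor Traf6, which relays interleukin-1 family signals, fell from 627 and 626 to 396 and 327 (1.74-fold, limma adjusted p = 0.0209). These were the only called genes of 11 measured in the interleukin-1 family list, 9 of which had negative values (median log2 fold change -0.8). Neither gene's groups overlapped, and Il1rap lost its call without ctrl replicate 1, Traf6 without either ctrl library. For Kitlg, the receptor Kit had normalized counts of 1491 and 1047 in ctrl and 1492 and 1368 in Phf8oe. Its groups overlapped, with a log2 fold change of 0.19 whose sign turned to -0.06 without ctrl replicate 2. Cxcr4 was at 256 and 382 in ctrl and at 326 and 261 in Phf8oe, again overlapping.

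For Vgf, the mitochondrial and cell surface protein gene C1qbp rose from 8543 and 8375 to 10993 and 11619 (1.34-fold, limma adjusted p = 0.0361). Among 31 genes of prohormone processing and dense-core vesicles, 2 fell and 29 did not pass (median log2 fold change -0.23). Ptprn, a membrane protein of dense-core vesicles, fell from 18489 and 14154 to 5491 and 6962 (2.62-fold, limma adjusted p = 0.00677). Pam, the enzyme that amidates peptide ends, fell from 10354 and 8569 to 7014 and 6585 (1.39-fold, limma adjusted p = 0.0431), a call lost under upper quartile scaling (0.0529) and with no robust moderation (0.065). None of the 28 other neuropeptide precursor and granin genes passed in limma, 6 had an unadjusted p under 0.05, and limma-voom on estimated reads called 1. Ucn2, encoding urocortin 2, had 698 and 550 in ctrl against 34 and 108 in Phf8oe, and its limma adjusted p was 0.0502. It passed in 9 of 16 alternative fits, among them limma-voom (adjusted p = 0.0118). Scg3, a granin of the secretory granule, had 2663 and 1888 against 935 and 1458 (limma adjusted p = 0.114), and Nucb1 had 10450 and 10853 against 10378 and 8627 (limma adjusted p = 0.382).

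For Inhba, the activin receptors Acvr1b, Acvr2a and Acvr2b had log2 fold changes of -0.31, -0.16 and -0.38, none past the threshold. Tgfbr3, or betaglycan, a co-receptor that binds inhibin and TGF-beta, fell from 8475 and 8288 to 5093 and 4821, a log2 fold change of -0.76 (SE 0.1) with a limma adjusted p of 0.00429. Among the antagonists, the activin-binding follistatin gene Fst was low, at 12 and 7 in ctrl and 32 and 21 in Phf8oe (limma adjusted p = 0.0868). Fstl3, which also binds activin, had 293 and 385 against 423 and 334, and the pseudoreceptor gene Bambi 421 and 330 against 330 and 345. The related gene Fstl1 rose from 7874 and 9995 to 15679 and 14091 (1.68-fold, limma adjusted p = 0.0151). The partner chain gene Inhbb stood at 39 and 77 in ctrl and at 148 and 57 in Phf8oe, with overlapping groups.

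**Figure D2:**
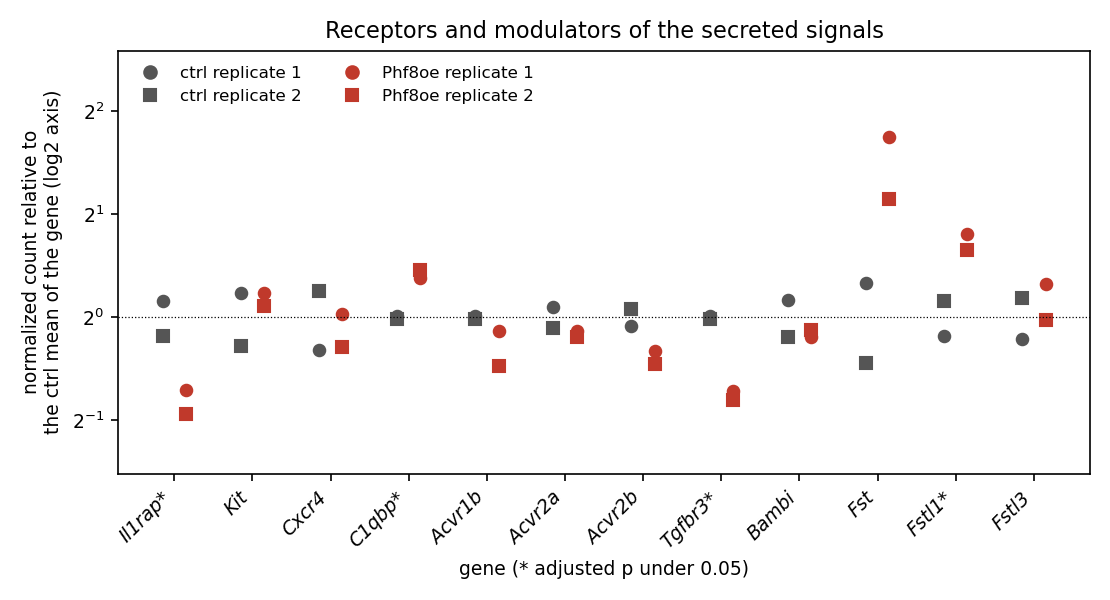
Normalized counts of 12 receptors and modulators of the 5 signals in each library, relative to the ctrl mean of the gene (log2 axis), with circles for replicate 1 and squares for replicate 2. Asterisks mark genes past an adjusted p of 0.05: Il1rap and Tgfbr3 lie below the ctrl libraries and C1qbp and Fstl1 above them, while Kit overlaps between the groups.

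Downstream and around activin, 4 of 21 genes fell, 1 rose and 16 did not pass (median log2 fold change -0.31). Ltbp1, which tethers latent TGF-beta to the matrix, fell from 338 and 287 to 73 and 109 (3.46-fold, limma adjusted p = 0.00584). Skil, an inhibitor of Smad signalling and itself a target of it, fell from 1369 and 1061 to 641 and 830 (1.65-fold, limma adjusted p = 0.0434), a call lost with no robust moderation of the variances (0.0654). Ltbp3 fell 1.32-fold (limma adjusted p = 0.0491), a call lost under upper quartile scaling (0.064), with TMM factors (0.0514) and with no robust moderation (0.0632). The fourth gene was Tgfbr3.

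Other secreted signals were set beside the 5 through lists of chemokines, cytokines, growth factors and TGF-beta superfamily ligands. The 9 lists together also hold receptors, intracellular signalling genes and vesicle genes, not secreted signals alone. They held 171 tested genes other than the 5. Of these 14 fell (8.19%, against 4.65% of all genes), 4 rose (2.34%, against 2.99%) and 153 did not pass. Among the 14, Tgfbr3, Il1rap, Traf6, Ltbp1, Ltbp3, Skil, Ptprn and Pam are not such signals. Of the signals, 1 of 5 chemokines, 2 of 18 cytokines, 2 of 42 growth factors and 1 of 16 TGF-beta superfamily ligands fell. None of the 28 neuropeptide precursor and granin genes fell. No excess for secreted signals is read from the total. The median log2 fold change of the 171 was -0.22. In fits without one of the libraries this median ranged from -0.26 to -0.18. The calls depended strongly on which library was left out, among these genes and across all genes, as described at the end. With limma-voom 23 of the 171 were called, against 1209 of all genes.

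Among 5 other chemokines Cxcl16, a membrane-bound chemokine that can be shed, fell from 122 and 97 to 42 and 33 (2.87-fold, limma adjusted p = 0.0173). It overlaps Zmynd15 in the GRCr8 gene table, and the sources used here do not say whether counting used strand. Of 18 cytokines 2 fell. Il16, a cytokine that binds CD4, went from 280 and 307 to 55 and 72, 4.6-fold lower (limma adjusted p = 0.00191). Clcf1, a cytokine of the interleukin-6 family, went from 37 and 28 to 7 and 8 (limma adjusted p = 0.0249), and it overlaps Rad9a in the same gene table. Like Inhba, Clcf1 passed the filter on low values only through the ctrl libraries, so a call could only be lower.

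Of 42 growth factor genes 2 fell, 1 rose and 39 did not pass. Fgf2, the basic fibroblast growth factor that keeps progenitors dividing, fell from 615 and 413 to 70 and 91 (6.25-fold, limma adjusted p = 0.00147). It overlaps Nudt6, which had 659 and 571 against 197 and 287. Pros1, encoding the TAM receptor ligand protein S, fell 1.43-fold (limma adjusted p = 0.0266), and Ptn, encoding the heparin-binding factor pleiotrophin, rose from 10514 and 9669 to 18385 and 15058 (limma adjusted p = 0.0123). Among 16 TGF-beta superfamily ligands Bmp6 fell from 93 and 123 to 45 and 48 (limma adjusted p = 0.0339) and Bmp4 rose from 4713 and 5852 to 9079 and 7670 (limma adjusted p = 0.0251). Secreted signals therefore moved both ways, with Ptn, Bmp4 and Fstl1 higher in both Phf8oe libraries. Without ctrl replicate 1 the calls of all the genes described as fallen or risen in these 4 lists were lost.

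**Figure D3:**
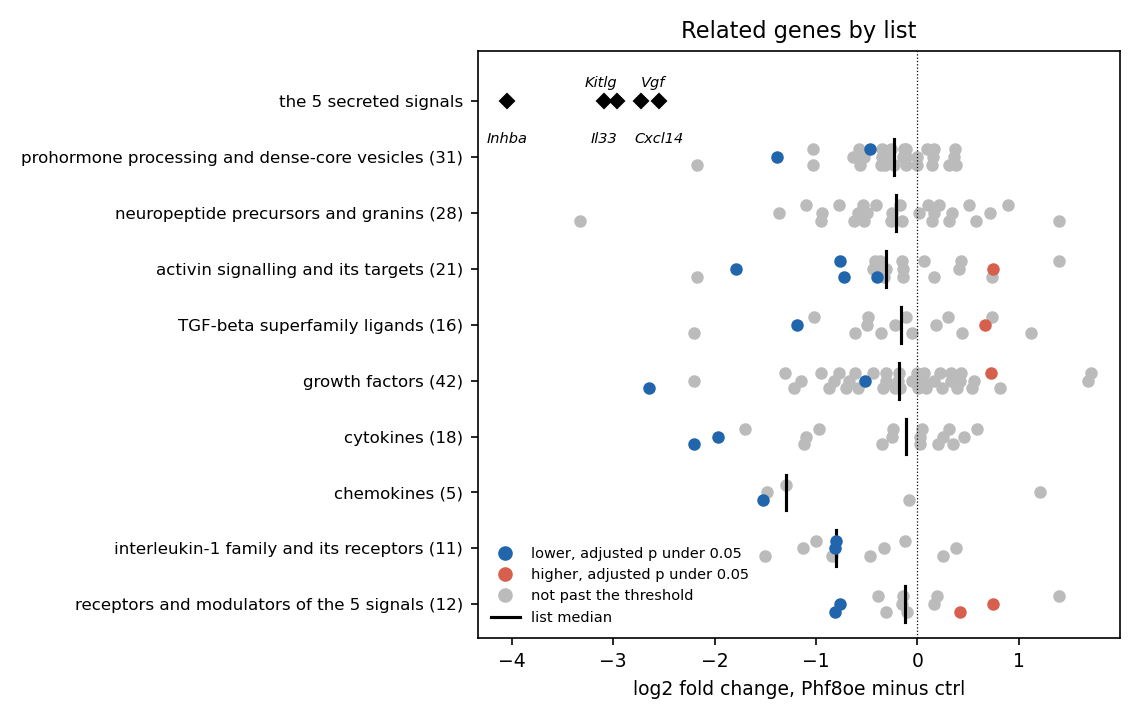
Log2 fold change (Phf8oe minus ctrl) of 171 related genes by list, with the number tested in brackets, blue for lower and red for higher at an adjusted p under 0.05, grey for the rest, and a black bar at each list's median; some genes are in more than 1 list. Black diamonds show the 5 secreted signals, untested, between -4.05 and -2.55, and Fgf2 at -2.64 is the lowest called gene of the lists.

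The nearest tested genes on each side were read as a measure that did not enter the choice of the 5 genes. By the gene order of the GRCr8 RefSeq table, none of the 5 overlapped another tested gene. Of 19 neighbours 1 fell, 2 rose and 16 did not pass, with a median log2 fold change of -0.07. Next to Kitlg, Dusp6, a phosphatase that acts on ERK, fell from 2524 and 1892 to 1180 and 1164, or 1.86-fold (limma adjusted p = 0.0108), a call lost without ctrl replicate 1. On the other side of Kitlg, Tmtc3 and Cep290 had log2 fold changes of -0.31 and -0.48, and beyond Dusp6 Poc1b stood at -0.06, none past the threshold. Next to Vgf, Ap1s1 had 5637 and 5475 against 4175 and 4930 (limma adjusted p = 0.132). Plod3 and Znhit1, on the other side of Vgf, stood at -0.07 and 0.25, not past the threshold. Around Il33, Ranbp6, Uhrf2 and RGD1311595 had log2 fold changes of -0.14, -0.05 and 0.01, not past the threshold, and Gldc, a glycine cleavage enzyme, rose from 894 and 924 to 1343 and 1233 (limma adjusted p = 0.0344). Next to Cxcl14, LOC100360522 rose (log2 fold change 0.48, limma adjusted p = 0.0327), and Fbxl21, Tgfbi and H2afy had log2 fold changes of -0.72, -0.22 and 0.001, not past the threshold. None of the Inhba neighbours Cdk13, Mplkip, Gli3 and Gabpb1l passed in limma.

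**Figure D4:**
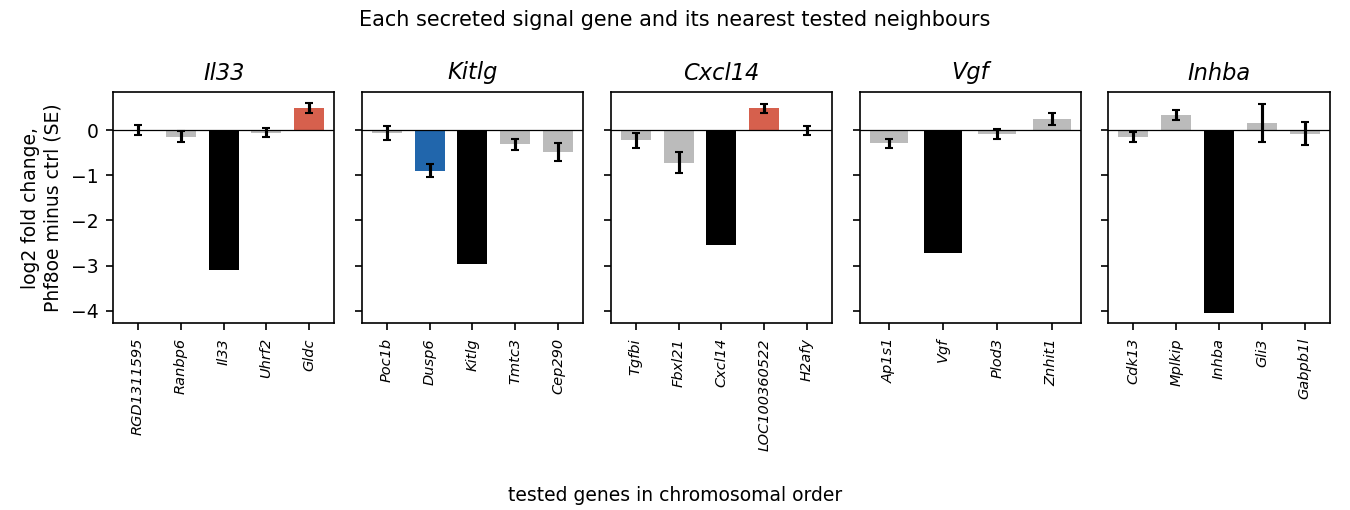
Log2 fold change (Phf8oe minus ctrl) of each secreted signal gene (black, untested) and of up to 2 nearest tested genes on each side in chromosomal order, with limma SEs on the neighbours, blue for lower, red for higher and grey for not past an adjusted p of 0.05. Dusp6 beside Kitlg is the only neighbour shown that was called lower, and Gldc near Il33 and LOC100360522 beside Cxcl14 were called higher.

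The labelled cell type was checked with marker genes. All 14 oligodendrocyte lineage markers were measured, among them Sox10 (61514 to 70474 normalized counts over the 4 libraries), and 4 of them rose and 1 fell in Phf8oe. Of 12 markers of microglia and macrophages 3 were in the table, none changed in limma (0 had an unadjusted p under 0.05, and limma-voom called 0), and Csf1r was at 8 to 11. Of 8 measured astrocyte markers 2 rose and 1, Gfap, fell, and their summed level was 139532 and 151332 in ctrl and 91206 and 92450 in Phf8oe. Without Gfap the sum of the other 7 was 60391 and 70596 in ctrl and 80372 and 72837 in Phf8oe, so the lower total was that of Gfap. Of 12 measured neuronal markers 1 fell and 10 had negative values (median log2 fold change -0.93). Their summed level was 23389 and 16255 against 9457 and 10765. The marker that fell was Nefm, at 4142 and 2665 against 869 and 1201 (limma adjusted p = 0.0315). Most of the drop in the sum was that of Nefm, Nefl (4843 and 2704 against 573 and 1056) and Tubb3 (7458 and 4778 against 1893 and 3353). Nefl and Tubb3 did not pass the threshold. Snap25 was at 28 and 25 against 9 and 17 (limma adjusted p = 0.165). The 2 neuronal markers with positive values were Elavl3 (1230 and 1061 against 1572 and 1440) and Elavl4 (193 and 278 against 261 and 292). Neither passed the threshold. Of 9 fibroblast and pericyte markers 2 were measured, with summed levels of 485 and 498 against 232 and 300. The collagen gene Col1a1 fell from 454 and 437 to 121 and 164 (limma adjusted p = 0.00361), and Postn, encoding the matrix protein periostin, rose from 31 and 61 to 111 and 136 (limma adjusted p = 0.038). Of 7 measured Schwann cell markers 1 passed the test, and the summed level was 8669 and 7253 against 7075 and 8684. That gene, the myelination regulator Egr2, fell from 543 and 517 to 77 and 180 (limma adjusted p = 0.0368). None of 4 measured endothelial markers passed in limma (1 had an unadjusted p under 0.05, and limma-voom called 0), and they summed to 2688 and 3266 against 3203 and 3104. The neuronal and fibroblast sums, Gfap and Egr2 were lower in Phf8oe, as were the 5 secreted signals, and their part in the difference was not tested.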

How the data were processed

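RNA-seq of 4 libraries, read as pairs of 150 bases, was used as the authors' deposited table of 14410 genes. The tools named in the submitters' processing notes are STAR 2.5.2b, Trimmomatic 0.36, bcl2fastq 2.20 and DESeq2, and the builds are Rnor_6.0 and rn6. The sources used here do not give the gene counter, the strand setting or the filter on listed genes. The deposited signal is a scaled and rounded count, although the labels call it raw: the spacing of the values gives 0.8445, 1.0176, 0.9548 and 1.4159 per read in ctrl 1, ctrl 2, Phf8oe 1 and Phf8oe 2. Estimated reads were about 47800000, 39300000, 43100000 and 28400000. Counting error alone would give a chi-square per degree of freedom near 1 between replicates, which was 20.8 for ctrl and 33.6 for Phf8oe.

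limma 3.58.1 (R 4.3.3) was fitted to log2(value + 1) with the group as its only term, variance trend and robust moderation, for 14368 genes with at least 10 in at least 2 libraries, and was tested on simulated data. Tests were two-sided, with Benjamini-Hochberg adjustment over all tested genes and a threshold of 0.05. The 5 genes and all lists were chosen with earlier results of these data known. Named were called list members (up to 4 each way, by smallest p; the 2 most abundant where none was called), all measured receptors and modulators, the 2 nearest neighbours per side and the 3 most similar profiles; Nudt6, Inhbb and the marker genes were named after their values were seen. Alternatives covered pseudocounts, filters, scalings, moderation, replicate block, limma-voom and each library left out. 1 gene that the rule takes is not reported here. Neighbours came from 12545 of 14368 tested genes placed by symbol. Python 3.11.15, numpy 2.4.6, pandas 2.3.3, scipy 1.17.1 and matplotlib 3.10.9 were used.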

Additional observations from a re-analysis of the deposited data

How the results depend on the processing

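The log2 fold change of Inhba was -2.62 with a pseudocount of 5. With at least 50 in both libraries of a group Inhba was not tested. The 1098 genes called across the table became 0 with no variance trend (3133 at an unadjusted p under 0.05; limma-voom gave 1209), 373 with the replicate block and 2354 with crossed pairing, and ranged from 14 to 2103 with one library left out. Upper quartile scaling turned the split of 430 higher and 668 lower to 608 and 589. The 18 related genes called became 0 with no variance trend (67 at an unadjusted p under 0.05; limma-voom gave 23), 9 with the replicate block and 46 with crossed pairing, and ranged from 0 to 46 with one library left out. In these fits with one library left out, the lone library is assumed to vary like the other group. The labels do not say that replicate numbers pair the libraries: differences between replicates correlated at r = -0.126 across the groups over genes, and the crossed pairing was added after seeing the data. Of 32 called genes named here besides the 5, calls were lost in 31 without ctrl replicate 1, 24 without ctrl replicate 2, 2 without Phf8oe replicate 1, 2 without Phf8oe replicate 2, 15 with the replicate block, 6 with no robust moderation and 32 with no variance trend. Nefm, also called, is not among these 32. The cause of the lost calls was not tested. Counting error limits the low values of Inhba, Clcf1 and Fst.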
